A study of Mus musculus with 8 samples.

Results

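The genes described here are the 2 receptor tyrosine kinases for insulin and insulin-like growth factor 1 (Insr and Igf1r), the scavenger receptor Igf2r, and the proteins that couple the kinases to their pathways or restrain them (Irs1, Irs2, Shc1 and Grb10). They were chosen by symbol, and all 7 were found among the 19505 genes of the array, with 1 transcript row each. Sorted granulocyte-macrophage progenitors (GMPs) carrying GFP were taken from the marrow of mice transplanted with cells that bear the fusion oncogene MLL-AF9, and the labels call them LSCs, the usual short form of leukaemia stem cells. The Pik3ca-/- group (KO, 3 arrays) lacked the p110-alpha catalytic subunit of phosphoinositide 3-kinase (PI3K), and the wild-type group (WT, 5 arrays) kept it. Both groups carried MLL-AF9 and the GFP mark. The sources used here do not give the age, the deleted part of the gene, how it was deleted, or the number of mice or leukaemias behind each group, so p-values measure only the spread between these arrays.

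Ligand-bound insulin and IGF1 receptors phosphorylate tyrosines of the insulin receptor substrates IRS1 and IRS2. These phosphotyrosines dock the p85 regulatory subunit of PI3K and so bring p110-alpha, its partner, to the membrane, which makes this group of genes the input side of the deleted kinase. SHC1 takes the same receptors to GRB2, SOS and the RAS pathway, GRB10 binds the active receptors and restrains them, and IGF2R has no kinase: it carries mannose 6-phosphate-tagged enzymes to lysosomes and removes IGF2 from outside the cell. In mouse liver, Irs2 and Insr are known targets of the FoxO transcription factors, which AKT holds inactive when PI3K signals.

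All values are deposited log2 values, whose log base was read from their range, so folds rest on that reading. Pik3ca, the targeted gene, was 8.73, 9.31 and 9.40 in KO arrays 1 to 3, against 9.48, 9.57, 8.41, 9.51 and 9.58 in WT arrays 1 to 5. The groups overlapped through WT array 3 alone: the difference was -0.16 (exact two-sided permutation p = 0.661), and without that array it was -0.39 with no overlap (exact p = 0.0286), while without KO array 1 it was 0.04. Probes outside the deleted part would not report the loss, so the gene is a weak check of the labels. All 10 markers of the sorted progenitor, such as Mpo and Elane, lay above the median transcript row on all 8 arrays. By group mean, 4 of them were lower in KO and 6 higher. Cd34, a lower one, was 5.63, 7.81 and 7.42 in KO arrays 1 to 3, against 7.24 to 10.94 in WT arrays. Mature neutrophil markers were also high, with list means of 12.81 to 14.68 in KO arrays and 13.41 to 14.61 in WT arrays. Retnlg of that list ran from 4.65 in KO array 1 to 10.49 in WT array 3. Whether the sorts matched in purity was not tested. WT array 3 stood apart from the others, with a mean correlation across genes of 0.925 to the other arrays, against 0.970 to 0.973 for the other 7. Comparisons of Pik3ca, Insr, Igf1r, Igf2r, Irs2 and Shc1, and counts over further pathway genes, are therefore given with and without it. The rest use all 8 arrays unless stated.

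Leukaemic progenitors of both groups had high values for both receptor kinases, for Irs2 and for Shc1, intermediate values for Igf2r, and values near the array's background for Irs1 and Grb10. Irs2 ranked between percentiles 93.0 and 95.1 of the transcript rows of its array, Insr between 89.3 and 92.4, and Shc1 between 81.8 and 92.1. Igf1r lay between percentiles 78.2 and 87.1, and Igf2r between 68.7 and 76.9. Irs1 lay between percentiles 0.657 and 12.8 and Grb10 between 2.89 and 28.1, under the array median on all 8 arrays. Each array holds 23 rows that their identifiers mark as background, and Irs1 exceeded only 5 to 9 of them, Grb10 7 to 10, and the other 5 genes all 23. A rank depends on how well a row's probes respond as well as on the RNA, so the ranks order rows on an array and not molecules in a cell.

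**Figure D1:**
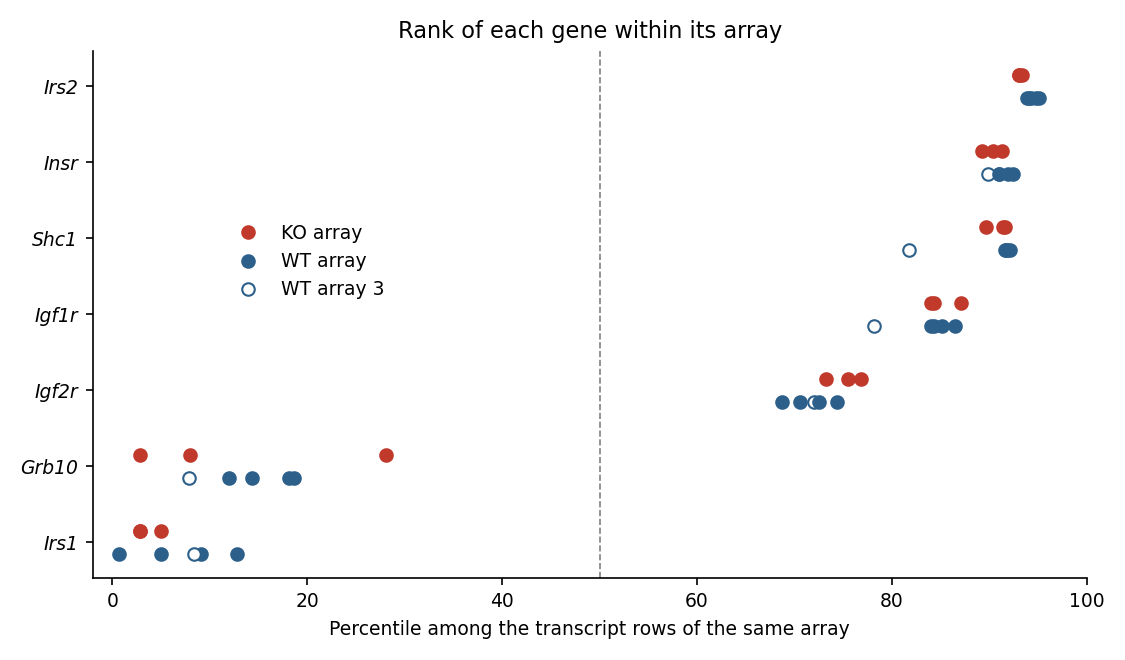
Percentile of each of the 7 genes among the transcript rows of the same array, with 1 point per array, KO above WT for each gene, WT array 3 open, and the array median dashed. Irs1 and Grb10 lay at the dim end on all 8 arrays, and the other 5 genes lay above the median, from percentile 68.7 upward.

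No gene of the group passed the test between KO and WT. With limma fitted across all 10293 genes bright enough to test, 0 of the 5 bright genes had an adjusted p under 0.05, as did 0% of all genes tested, with 3 KO and 5 WT arrays and also without WT array 3. The unadjusted p was under 0.05 for 1 of the 5, Igf2r, against 2.86% of all genes tested (294 genes), and without WT array 3 for 2, Igf2r and Irs2, against 4.66% (480 genes). Irs2 was also the 1 bright gene whose groups did not overlap, with all arrays, against 3.10% of all genes tested, and without WT array 3, against 5.54%. These are counts of 1 or 2 genes among 5, chosen with earlier results known, and are a description. In sorted bulk samples, fewer cells that express a gene and less RNA per cell cannot be told apart.

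**Figure D2:**
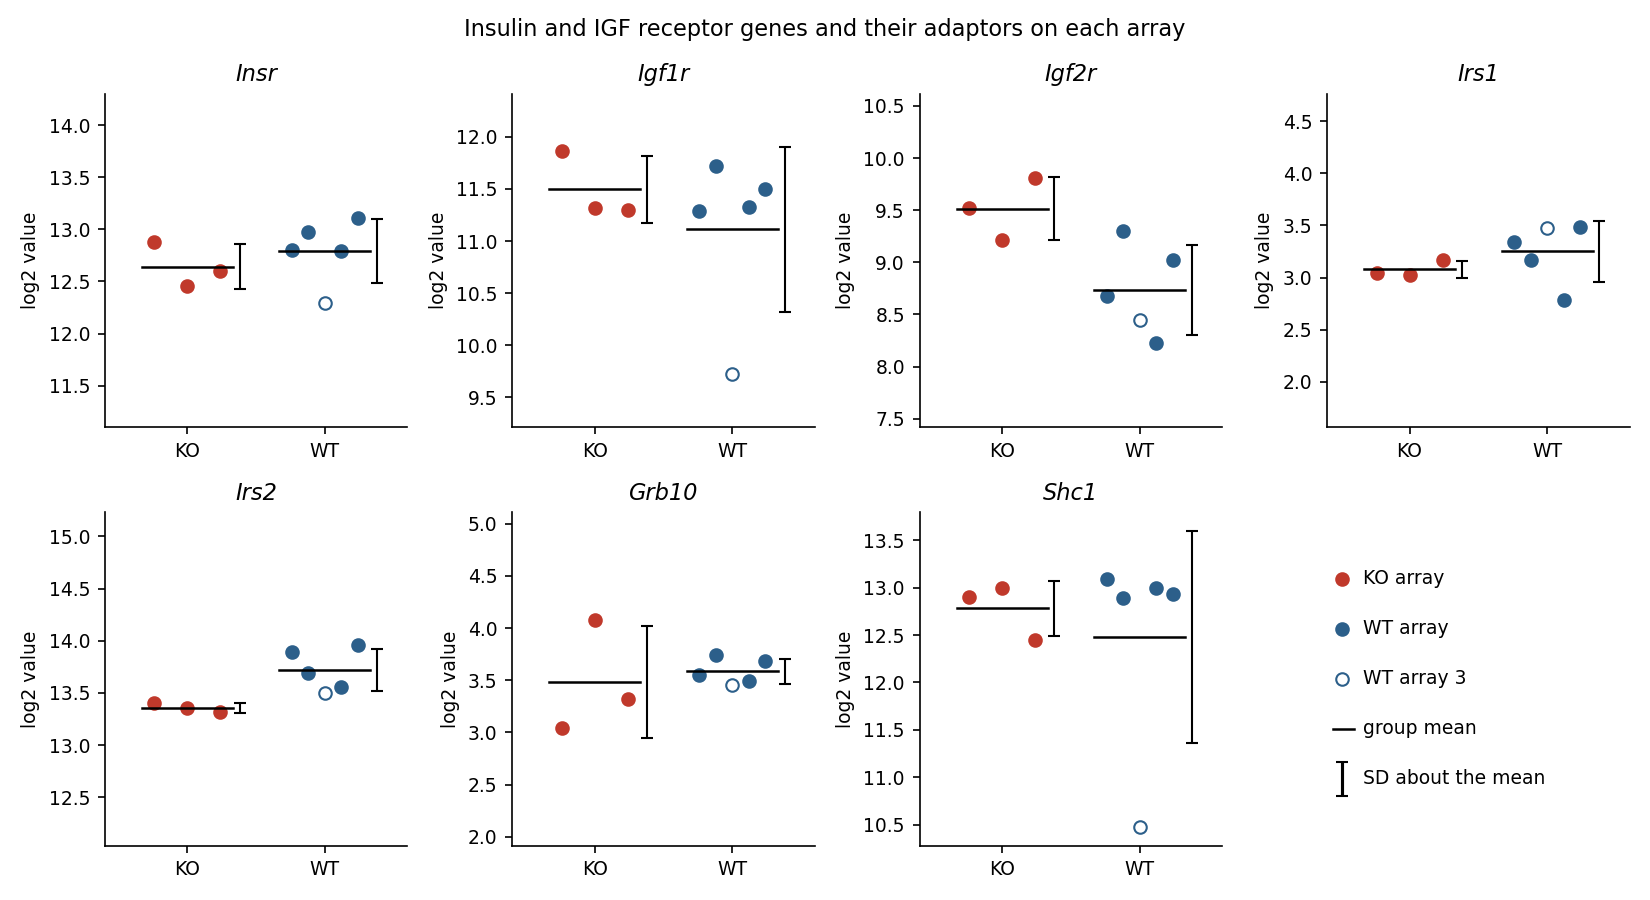
Deposited log2 value of each gene on each array, KO on the left and WT on the right, with WT array 3 open. Lines are group means and bars are SDs (n = 3 KO and 5 WT), the axes span different ranges, and Irs2 is the gene whose KO points all lie below its WT points.

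Insr, the insulin receptor, was 12.87, 12.45 and 12.60 in KO arrays 1 to 3, against 12.80, 12.97, 12.30, 12.79 and 13.11 in WT arrays 1 to 5. The groups overlapped, and WT array 3 held the lowest value of the 8. Insr averaged 12.64 ± 0.21 (SD, n = 3) in KO arrays and 12.79 ± 0.31 (SD, n = 5) in WT arrays, a log2 difference of -0.15 with a 95% interval of -0.68 to 0.38 (limma adjusted p = 0.999). Without WT array 3 the difference was -0.28, with an interval of -0.68 to 0.13. The intervals leave room for a fall in KO of up to 0.68 log2 units, so an unaltered Insr level was not shown.

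Igf1r, the receptor for IGF1, was 11.87, 11.32 and 11.30 in KO arrays 1 to 3, against 11.29, 11.72, 9.72, 11.33 and 11.50 in WT arrays 1 to 5. WT array 3 lay far below the other 7 arrays, which covered a narrow range in both groups. The means were 11.49 ± 0.32 (SD, n = 3) in KO arrays and 11.11 ± 0.79 (SD, n = 5) in WT arrays, and the difference of 0.38 had an interval of -0.60 to 1.37 (limma adjusted p = 0.999). Without WT array 3 the WT mean was 11.46 ± 0.20 (SD, n = 4) and the difference was 0.04, with an interval of -0.44 to 0.51. Most of the difference between the group means therefore came with that array.

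Igf2r, the mannose 6-phosphate and IGF2 receptor, had the widest separation of group means among the bright genes. It was 9.52, 9.22 and 9.81 in KO arrays 1 to 3, against 8.67, 9.30, 8.45, 8.22 and 9.02 in WT arrays 1 to 5. KO arrays 1 and 3 lay above all WT arrays, and KO array 2 lay just under WT array 2. The means of 9.52 ± 0.30 (SD, n = 3) in KO arrays and 8.73 ± 0.43 (SD, n = 5) in WT arrays gave a difference of 0.78, a fold of 1.72, with an interval of 0.14 to 1.43. The unadjusted limma p was 0.0230 and the adjusted p 0.999, and the exact two-sided permutation p over 56 splits was 0.0536, where the smallest possible is 0.0179.

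The Igf2r difference kept its sign under every array left out, between 0.63 without KO array 3 and 0.93 without KO array 2. Without WT array 3 it was 0.71, with an interval of 0.06 to 1.36, an unadjusted limma p of 0.0349 and an adjusted p of 0.989. In ranks, Igf2r lay at percentiles 73.2 to 76.9 in KO arrays and 68.7 to 74.4 in WT arrays, so the groups overlapped there too. In the mouse, the antisense RNA Airn overlaps part of Igf2r, and whether the array row reads 1 strand only is not given in the sources used here.

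**Figure D3:**
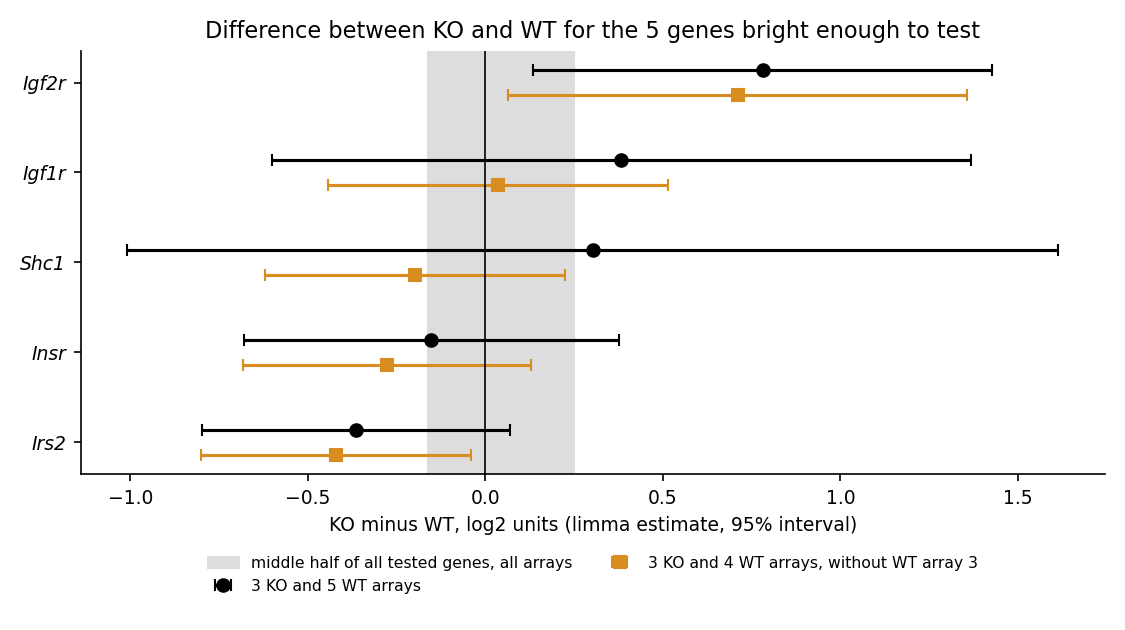
KO minus WT difference in log2 units for the 5 bright genes, as limma estimates with 95% intervals, for all 8 arrays (circles) and without WT array 3 (squares); the grey band spans the lower to the upper quartile of all 10293 genes tested. The Igf2r interval lies above 0 in both fits, the Irs2 interval lies below 0 without WT array 3 and reaches 0.07 with it, and Shc1 changes sign.

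Of the 2 insulin receptor substrates of the group, Irs2 alone was read above the background rows. Irs2 was 13.40, 13.35 and 13.31 in KO arrays 1 to 3, against 13.89, 13.69, 13.50, 13.56 and 13.96 in WT arrays 1 to 5. All 3 KO arrays lay below all 5 WT arrays, and they lay closer together than the WT arrays did. The means were 13.36 ± 0.04 (SD, n = 3) in KO arrays and 13.72 ± 0.20 (SD, n = 5) in WT arrays, and the difference of -0.36, a fold of 0.777, had an interval of -0.80 to 0.07 with an unadjusted limma p of 0.0894 and an adjusted p of 0.999. The exact two-sided permutation p was 0.0357 over 56 splits.

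The Irs2 difference was between -0.42 without WT array 3 and -0.31 without WT array 5. Without WT array 3 the interval was -0.80 to -0.04, with an unadjusted limma p of 0.0339 and an adjusted p of 0.989, and the exact permutation p was 0.0571 over 35 splits. In ranks the groups did not overlap either, at percentiles 93.0 to 93.3 in KO arrays and 93.8 to 95.1 in WT arrays. Genes whose groups do not overlap with KO lower made up 1.52% of all genes tested, and 2.90% without WT array 3.

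The mean over markers of mast cells, basophils and eosinophils, which the sort could hold, also separated the groups, but no gene of the list did so alone. With all 8 arrays, the means of the other marker lists overlapped between the groups. Without WT array 3, the T and NK cell means and the stromal and endothelial means also separated, with KO higher. They were 3.98 to 4.06 in KO arrays against 3.64 to 3.93, and 4.42 to 4.56 in KO arrays against 4.21 to 4.38. No gene of either list lay above the array median on all 8 arrays. The mast cell, basophil and eosinophil list of 7 genes averaged 6.46 to 6.51 in KO arrays and 6.74 to 7.17 in WT arrays. Of its 7 genes, 5 were lower in KO. Prg2 had the largest difference, -2.19, and was highest in WT arrays 3 and 4, at 11.98 and 12.84. Hdc and Fcer1a went the other way, by 0.76 and 0.10. Of the list's defining genes, 2, Epx and Fcer1a, lay under the array median on all 8 arrays. The part of these cells in the Irs2 and Igf2r values was not tested. Megakaryocyte and platelet markers averaged 5.93 to 6.37 in KO arrays and 5.75 to 10.35 in WT arrays, the highest in WT array 1, and without WT array 1 the Irs2 difference was -0.32.

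Irs1 was 3.05, 3.02 and 3.17 in KO arrays 1 to 3, against 3.34, 3.17, 3.48, 2.79 and 3.49 in WT arrays 1 to 5. The groups overlapped, and all 8 values lay among the background rows, which ran from 2.44 to 5.97. The difference of -0.17 had an exact two-sided permutation p of 0.339, and in the fit with no filter on dim rows its interval was -0.60 to 0.25 (limma adjusted p = 0.999). At such values an equal or unequal amount of Irs1 RNA could not be told.

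The start sites of Irs1 and Irs2 share a sequence that the choice of genes did not use, and it is shown because Irs2 was read well above the background rows and Irs1 was not. Windows of 250 bases before the start (RefSeq, GRCm38.p6) were found for 6 of the 7 genes, 8 windows in all; Insr had none. The longest run common to the Irs1 and Irs2 windows had 10 bases, a length that both GTCACGTGTT and TGTTTTGCTC reached. GTCACGTGTT also stood in the window of Irs4, a further family member, where TGTTTTGCCC took the place of TGTTTTGCTC. Like Irs1, Irs4 was under the array median on all 8 arrays. The stretches of 80 bases below, written 5′ to 3′ along the gene with the shared run in capitals, lie at chr8:11008931-11009010 (Irs2), chr1:82291512-82291591 (Irs1) and chrX:141725329-141725408 (Irs4), all on the minus strand.
Irs2: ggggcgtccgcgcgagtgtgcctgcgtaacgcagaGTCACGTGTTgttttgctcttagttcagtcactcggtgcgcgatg
Irs1: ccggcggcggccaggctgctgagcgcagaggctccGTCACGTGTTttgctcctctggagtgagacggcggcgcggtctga
Irs4: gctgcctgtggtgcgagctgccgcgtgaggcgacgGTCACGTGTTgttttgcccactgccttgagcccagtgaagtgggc

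GTCACGTGTT was present, on either strand, in 23 of 32851 promoter windows (0.0700%). Between Irs2 and Irs4 the identical run extended to 17 bases, and those 2 windows were the only ones of the 32851 that held it. The run contains CACGTG, an E-box, the letters bound by basic helix-loop-helix factors such as MYC, USF and TFE3, which 6.02% of windows held. In all 3 genes TGTTTTG, letters found in insulin response elements, lay beside it, with 1 base between it and CACGTG in Irs2 and Irs4, and overlapping its last 2 bases in Irs1; counted on both strands, 5.56% of windows held TGTTTTG and 0.295% held both. The FoxO consensus TGTTTAC, searched on both strands and held by 3.17% of windows, was in none of the 8 windows. A match describes letters only, and the sequences were compared after the values were known.

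Igf2r, the member with the largest difference, held CACGTG 2 times within 250 bases of its start, and 0.429% of windows held more than 1 copy. The 80 bases before the start, at chr17:12769707-12769786 on the minus strand, are printed with both copies in capitals.
Igf2r: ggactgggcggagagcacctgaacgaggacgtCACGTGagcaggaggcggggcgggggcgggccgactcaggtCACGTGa

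Shc1, the adaptor toward GRB2 and RAS, was 12.90, 13.00 and 12.44 in KO arrays 1 to 3, against 13.09, 12.90, 10.48, 12.99 and 12.94 in WT arrays 1 to 5. WT array 3 lay over 2 log2 units below every other WT array, and KO array 3 was the next lowest. The difference of 0.30 had an interval of -1.01 to 1.61 (limma adjusted p = 0.999), and without WT array 3 it was -0.20 with an interval of -0.62 to 0.22 (adjusted p = 0.989). The direction of the Shc1 difference was thus set by 1 array.

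Grb10, the receptor-binding inhibitor, is an imprinted gene, as is Igf2r in the mouse. It was 3.05, 4.08 and 3.32 in KO arrays 1 to 3, against 3.55, 3.74, 3.46, 3.49 and 3.68 in WT arrays 1 to 5. The KO arrays lay on both sides of the WT arrays, and all values were among the background rows. The difference of -0.10 had an exact two-sided permutation p of 0.661. It turned to 0.12 without KO array 1 and was -0.40 without KO array 2, with an exact permutation p of 0.0476. That is the smallest p the exact test can give with a KO array left out.

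In each of the 5 bright genes WT array 3 was under the average of its group. Set against the mean of WT arrays 1, 2, 4 and 5, that array differed by -0.62 log2 units in Insr, -1.74 in Igf1r, -0.35 in Igf2r, -0.28 in Irs2 and -2.50 in Shc1, and 4 of the 5 lay below every other WT array, as did 41.1% of all genes tested. Only 4.03% of genes tested fell further than Shc1 there and 9.66% further than Igf1r. After centring each gene on its own mean over the 8 arrays, the closest pair was Insr and Irs2, with a root mean square difference of 0.20, and the farthest was Igf2r and Shc1, with 0.84. Without WT array 3 Insr and Irs2 were again the closest pair, with 0.16, and Igf2r and Irs2 were the farthest, with 0.65.

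By the same measure, genes outside the group came closer to each of the 5 bright members than the other bright members did. Nearest to Igf2r were Mmaa, a mitochondrial protein of cobalamin metabolism, at 0.16, and the aminopeptidase gene Aopep at 0.20. Nearest to Irs2 were the mitochondrial ubiquitin ligase gene Marchf5 and the gamma-tubulin complex gene Tubgcp2, both at 0.11, with KO minus WT differences of -0.20 and -0.22. Insr was followed most closely by Asxl2, a chromatin regulator, at 0.07 and the histone gene H2ac1 at 0.11. Igf1r was followed by Naip2, an innate immune sensor, and Stag1, a cohesin subunit, both at 0.12, and Shc1 by Akap13, a kinase anchor, and Ppp2r5d, a phosphatase subunit, both at 0.12. In Naip2, Stag1, Akap13 and Ppp2r5d too, WT array 3 held the lowest value. For the dim Irs1 and Grb10 the nearest were Clec4b1 and Casp2, and Taf5l and Aatk, whose likeness is to values at the background level. These are the closest of 10293 genes over 8 arrays and are a description only.

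The rest of the receptor pathway was described with 71 further genes in 5 lists: ligands, IGF binding proteins, other adaptors, inhibitors, and mannose 6-phosphate sorting. The array named 67 of them and 43 were bright enough to test. In limma 0 of the 43 passed in either direction, 26 had a difference above 0 and 17 below, and their median was 0.05, against 0.04 over all genes tested. Without WT array 3, 0 passed, 19 were above 0 and 24 below, and the median was -0.05, against 0.0017 over all genes. Groups without overlap were found for 0 of the 43, against 3.10% of all genes tested, and without WT array 3 for 1, against 5.54%. That gene, chosen after its values were seen, was Grb2, the adaptor that SHC1 engages, at 12.83, 13.17 and 13.21 in KO arrays 1 to 3, against 13.28, 13.22, 11.77, 13.38 and 13.52 in WT arrays 1 to 5.

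**Figure D4:**
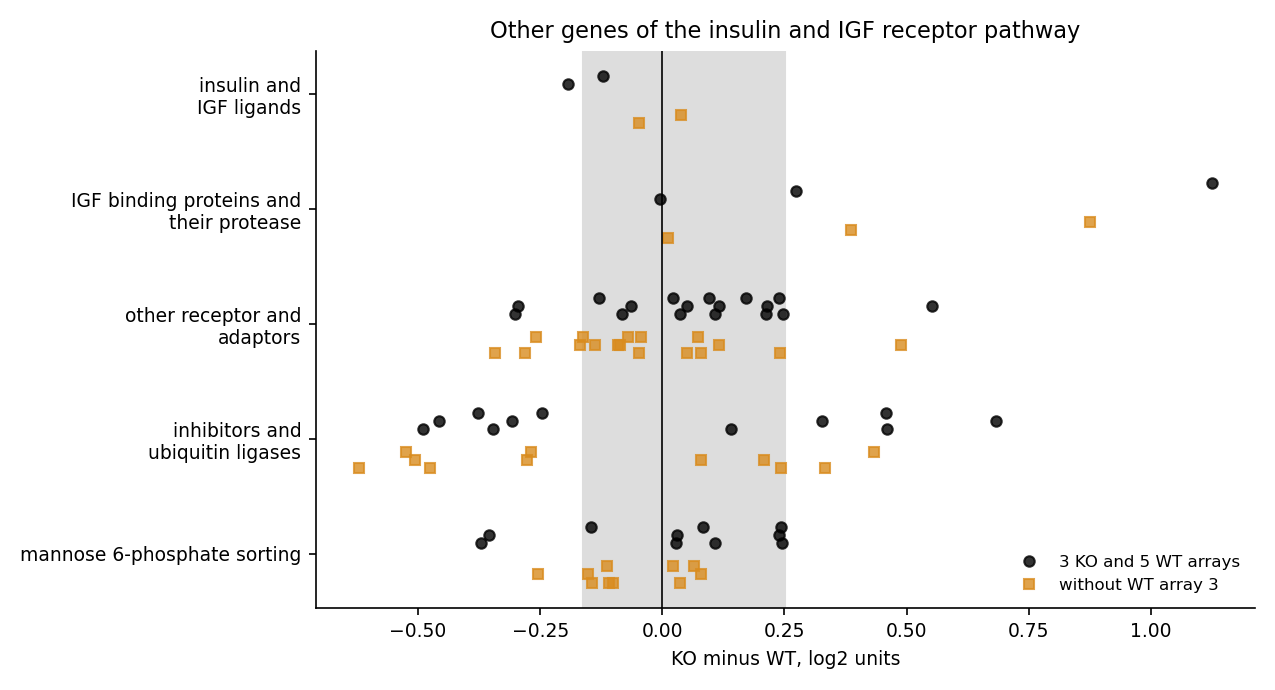
KO minus WT difference in log2 units of the 43 tested genes of the 5 pathway lists, with all 8 arrays (circles) and without WT array 3 (squares); the vertical scatter within a list has no meaning, and the grey band spans the lower to the upper quartile of all genes tested. The gene farthest to the right is Igfbp4, at 1.13 with all arrays and 0.87 without WT array 3.

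Among ligands, 2 of the 4 genes were tested and 0 passed. Igf1 averaged 6.12 ± 0.31 (SD, n = 3) in KO arrays and 6.24 ± 0.53 (SD, n = 5) in WT arrays, a difference of -0.12 that was between -0.25 without KO array 1 and 0.05 without KO array 2. Ins2, which encodes an insulin, differed by -0.19, or -0.05 without WT array 3. Igf2 was under the array median on all 8 arrays and was not tested. Of 10 genes for IGF binding proteins and their proteases, 3 were tested and 0 passed.

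Igfbp4, which holds IGFs in a complex, had the largest difference of the 43. It was 12.51, 11.60 and 11.25 in KO arrays 1 to 3, against 11.76, 11.54, 9.66, 9.74 and 10.60 in WT arrays 1 to 5. The groups overlapped: the WT arrays spread over more than 2 log2 units, and WT arrays 1 and 2 lay above KO array 3. The difference of 1.13 had an interval of -0.12 to 2.37 (limma unadjusted p 0.0718, adjusted p 0.999), and it was between 0.77 without KO array 1 and 1.40 without WT array 1. Igfbp7, a dim member, differed by 0.27, between 0.18 without WT array 4 and 0.39 without WT array 3.

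Of 28 genes in the list of other receptors and adaptors, 17 were tested, 0 passed and the median was 0.10, or -0.07 without WT array 3. Crk, an adaptor of SH2 and SH3 domains, had an unadjusted limma p under 0.05, the only 1 of the 43, against 2.86% of all genes. It ran from 6.76 to 7.21 in the 3 KO arrays, against 6.29, 6.42, 6.18, 6.80 and 6.50 in WT arrays 1 to 5, so KO array 2 lay just under WT array 4. The difference was 0.55 with an interval of 0.07 to 1.04 (unadjusted p 0.0300, adjusted p 0.999). Sh2b2, an adaptor of the insulin receptor also called APS, differed by -0.30, between -0.51 without KO array 2 and -0.05 without KO array 3.

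Of 19 inhibitors and ubiquitin ligases, 11 were tested and 0 passed, with a median of -0.25 and with -0.27 without WT array 3. Socs2, a suppressor of cytokine and growth hormone signalling, was 5.66, 5.38 and 5.06 in KO arrays 1 to 3, against 4.95, 4.82, 4.80, 4.63 and 5.33 in WT arrays 1 to 5, a difference of 0.46 at a level near the array median. Without KO array 1 it was 0.31. Ptpre, a receptor-type tyrosine phosphatase, was 13.74, 13.71 and 13.95 in KO arrays 1 to 3, against 13.80, 14.29, 14.23, 14.17 and 14.06 in WT arrays 1 to 5, a difference of -0.31 with overlap at WT array 1.

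All 10 genes of mannose 6-phosphate sorting, the route that IGF2R serves, were tested, 0 passed, and the median was 0.06, or -0.10 without WT array 3. Gnptab, whose enzyme starts the mannose 6-phosphate tag, differed by -0.36, between -0.46 without KO array 1 and -0.15 without KO array 2. Gga3, an adaptor that sorts the receptor at the Golgi, differed by -0.37, and by -0.14 without WT array 3, which held its highest value. Of the 10 genes, 7 had a difference above 0 and 3 below, and without WT array 3 there were 4 above and 6 below.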

How the data were processed

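The deposited table holds log2 values for 28846 rows on 8 arrays, 22206 of them transcript rows. How the authors corrected and normalized the values, with which software and build, is not stated in the sources used here, and the log base was read from the range, 1.89 to 18.65. Per the labels' protocols, RNA was extracted with a kit for small samples and labelled with biotin. The design text names a mouse transcriptome array, while the row annotation may belong to another Affymetrix array. Groups and replicate numbers came from the sample titles. The members and lists were chosen with earlier results of these data known.

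Named rows above the median transcript row on at least 3 arrays were tested, 1 row per symbol (highest mean), 10293 genes. Differences of KO minus WT were fitted with limma 3.58.1 in R 4.3.3 (lmFit, then eBayes; two-sided p-values adjusted by Benjamini-Hochberg over all genes tested, threshold 0.05), with 95% intervals. Exact two-sided permutation tests took the absolute difference of means over all splits of the arrays, without adjustment. They were run for each of the 7 genes, for Pik3ca and for the 2 genes of smallest unadjusted p in each pathway list. The alternatives were other filters on dim rows, quantile normalization, median centring, a floor, other variance models, array weights, the row of largest variance, a replicate block and leaving out each array. Scripts were tested on simulated data with planted differences larger than those of the 7 genes, so detection of differences as small as theirs was not tested. Named pathway genes are, for each list, the 2 whose unadjusted p was smallest; Igfbp4 and the rest follow that rule, Grb2 and Grb14 do not, and Irs4 was named for its sequence. The number of arrays limits the precision. No pair of arrays was a duplicate (smallest root mean square difference 0.487). Figures used matplotlib 3.10.9 in Python 3.11.15.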

Additional observations from a re-analysis of the deposited data

Results flagged for a closer look

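The WT values of 18 genes, the 7 members, 10 pathway genes and Pik3ca, were searched for an array whose gap to its nearest neighbour exceeded 0.71 of the range of the 5 WT arrays. The search found 4, all in WT array 3. The rule is met by about 1 in 20 when values are independent and normal, which does not allow for an array that differs across many genes. In WT array 3, 41.1% of all genes tested lay below every other WT array. The share of all genes that meet the rule was not counted, so the 4 are not a result particular to these genes. Igf1r was 9.72 there, against 11.29 to 11.72 in the other WT arrays. Shc1 was 10.48, against 12.90 to 13.09. Pik3ca was 8.41, against 9.48 to 9.58. Sh2b2 lay on the other side, at 11.65 against 10.92 to 11.08.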

How the results depend on the processing

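Of 160 values computed under 9 other settings and with each array left out, where these applied, 5 had the opposite sign to the value reported. Some of the 160 could not change sign. Counts of genes called were 0 throughout. Other filters, the floor, the trend and robust fit and the row choice left each member's difference unchanged where they applied. The share of sign changes therefore does not measure how stable the results are. The 5 belong to Shc1, Grb10 and the pathway median. The Shc1 difference of 0.30 was -0.13 with array weights, and between -0.20 and 0.47 with 1 array left out. The Grb10 difference of -0.10 was between -0.40 and 0.12 with 1 array left out. At its lowest, without KO replicate 2, it was past the exact test's threshold, with the smallest p that test can give there. With 1 array left out, Insr was between -0.28 and -0.06, Igf1r between 0.04 and 0.54, Igf2r between 0.63 and 0.93, Irs1 between -0.29 and -0.11, Irs2 between -0.42 and -0.31, and the pathway median, reported as 0.05, between -0.05 without WT array 3 and 0.11; it was -0.04 with array weights. No setting called a gene at an adjusted p under 0.05. The count of genes at an unadjusted p under 0.05 was 294, but 592 with no filter on dim rows, 466 with array weights and 480 without WT array 3. In deviations from group means, the correlations between same-numbered arrays were 0.015, -0.015 and 0.14. KO array 3 correlated best with its own number and KO arrays 1 and 2 did not. So few arrays cannot show whether the replicate numbers pair them. With the replicate number as a block, over arrays 1 to 3 of each group, 0 genes passed and the differences were -0.05 for Insr, 0.58 for Igf1r, 0.71 for Igf2r, -0.34 for Irs2 and 0.63 for Shc1. Irs1 and Grb10, under the filter, had no value with the stricter filter, trend and robust fitting, array weights or the block, and at the floor their values have no order.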

Other observations

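Among pathway genes too dim to test, Grb14 and Irs4 stood out by their values, and both were chosen after those were seen. Grb14, the paralog of Grb10 that also binds the insulin receptor, was 3.32, 4.08 and 7.16 in KO arrays 1 to 3, against 3.50 to 5.29 in the 5 WT arrays, with a median of 4.16, so KO array 3 alone lay above its array median. Irs4 was 3.94, 3.79 and 3.89 in KO arrays 1 to 3, against 3.18, 3.57, 3.57, 3.60 and 3.25 in WT arrays 1 to 5, with no overlap of the groups but with every value among the background rows. Groups did not overlap in 3.10% of all genes tested, and the share among genes too dim to test was not counted.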
